A study of Mus musculus with 56 samples.

Results

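Id1, Id2 and Id3 encode inhibitors of DNA binding, and their transcripts were followed in mouse keratinocytes given TGF-β1, the cytokine transforming growth factor β1. The members were found by gene symbol in the platform annotation: 3 of 6795 named genes, each read by 1 probe, 3 of 9596 probes in all. Keratinocytes, which build the epidermis, came from newborn mice and were used in 2 forms. Ras keratinocytes had been transduced in culture with a replication-defective retrovirus that carries Ha-ras, a transforming oncogene, and primary keratinocytes had not. Both were treated with TGF-β1 at 1 ng/ml. Cells of the strain Balb/c were treated for 1, 6, 24 or 48 h, and cells of Smad3-/- (KO) and Smad3+/+ (WT) mice of the strain labelled C57B1/SVJ for 48 h. The knockout is carried by every cell of its culture, untreated cells included, and the labels name no clone or pool and do not say how many mice gave cells. Each 2-colour array set RNA of treated cells (Cy5) against RNA of untreated cells of the same form and genotype (Cy3), so each value is a log2 ratio, treated over untreated, a difference between 2 RNA samples and not a level. A negative value means less transcript in the treated cells. Balb/c ras keratinocytes had 6, 7, 6 and 4 such arrays at 1, 6, 24 and 48 h, Balb/c primary keratinocytes had 6, 7, 6 and 3, and each Smad3 genotype had 1 array per form. The series description speaks of several arrays for a time point sample, and nothing says that the arrays of a group came from separate cultures, so the p-values may reflect technical spread alone.

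Id proteins have a helix-loop-helix domain but no basic region, so they pair with basic helix-loop-helix transcription factors such as the E proteins and keep them from DNA. Through this they hold back differentiation and favour proliferation in many cell types, keratinocytes among them. Their genes are classical direct targets of bone morphogenetic protein (BMP) signalling through SMAD1 and SMAD5. In human epithelial cells TGF-β acting through SMAD3 is known for repressing them after an early rise, with the stress factor ATF3 as a partner at the Id1 promoter.

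The promoter sequences of Id2 and Id3 are shown to set letters that SMADs and their partners are known to bind beside the responses of each gene. They are the 250 bases before the start site in RefSeq's table for build GRCm38.p6, at chr12:25096093-25096342 on the minus strand for Id2 and chr4:136143572-136143821 on the plus strand for Id3, which matched 2 of the 3 members. Id1 was not matched. Both are written 5′ to 3′ along the gene. Capitals mark GGCGCC in Id2, and in Id3 the letters CAGAC and TGACG on either strand.
Id2 promoter: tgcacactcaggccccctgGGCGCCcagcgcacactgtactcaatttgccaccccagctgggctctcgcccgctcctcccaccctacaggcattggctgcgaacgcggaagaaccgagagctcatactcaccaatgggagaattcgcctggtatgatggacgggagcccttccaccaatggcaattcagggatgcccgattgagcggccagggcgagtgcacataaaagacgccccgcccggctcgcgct
Id3 promoter: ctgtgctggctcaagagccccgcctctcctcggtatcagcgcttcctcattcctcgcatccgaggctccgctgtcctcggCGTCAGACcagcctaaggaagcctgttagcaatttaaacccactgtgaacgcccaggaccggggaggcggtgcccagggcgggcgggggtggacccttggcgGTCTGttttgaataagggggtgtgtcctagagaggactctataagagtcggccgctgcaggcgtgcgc
In these windows 6 sets of letters were searched on both strands. CAGAC, the core of the element that SMAD3 and SMAD4 bind, stood at 2 places in Id3, -167 to -163 and, on the other strand, at -68 to -64 counted from the start site, and not in Id2. It is held by 42.2% of the 32851 promoter windows of the same length. GGCGCC, a GC-rich sequence that SMADs also bind, stood once in Id2, at -231 to -226, and not in Id3, and 9.59% of windows hold it. TGACG, a partial site of ATF and CREB factors, stood once in Id3, at -170 to -166, where it overlaps the first CAGAC, and 17.8% of windows hold it. CANNTG, the E box bound by basic helix-loop-helix factors, stood once in Id2, at -196 to -191, and 66.2% of windows hold it. GTCTAGAC and TGACGTCA stood in neither window and are held by 0.167% and 1.55% of windows. A match of letters is a description and shows no binding.

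Arrays differed among themselves. Over the 56 arrays the deposited values had an SD between 0.194 and 1.81, and no 2 arrays were identical (highest correlation 0.654). On 7 arrays the dyes were reversed, and the sources used here do not say whether their sign had been turned before deposit. The 5 of them from Balb/c cells correlated with the mean of their group at -0.0655 to 0.129 (median 0.0494), against -0.155 to 0.440 (median 0.193) for the other Balb/c arrays. These 7 were left out of the tests and their member values are given as deposited. No spot brightness was used here, and the precision of a mean is limited by its number of arrays. Over all 8905 features tested, the share called at an adjusted p under 0.05 was 0.0786%, 1.73%, 10.5% and 3.5% in ras keratinocytes and 0.0112%, 0.0112%, 1.36% and 8.6% in primary keratinocytes at 1, 6, 24 and 48 h. Calls of the members and of the listed genes below are to be read against these shares.

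Id1 stood above its untreated level on nearly all arrays at 1 h and below it on nearly all arrays later, and its responses at 48 h passed the test in both forms. At 1 h its log2 ratio ran from -0.10 to 1.28 with a median of 0.42 on the 6 ras arrays, and from 0.14 to 1.19 with a median of 0.49 on the 6 primary arrays. At 6 h it ran from -1.59 to 1.20 with a median of -1.22 on the 7 ras arrays and from -1.95 to 1.16 with a median of -1.08 on the 7 primary arrays. In each form 6 of the 7 arrays at 6 h lay below 0 and 1 lay above it by more than 1 log2 unit. At 24 h it ran from -1.27 to 0.20 with a median of -0.94 on the 6 ras arrays, and from -1.68 to -0.11 with a median of -0.42 on the 6 primary arrays. At 48 h the 4 ras arrays gave -1.80, -1.96, -1.84 and -0.08, and the 3 primary arrays gave -2.52, -2.84 and -0.62. All 7 arrays at 48 h were below 0, which 15.4% of features showed in ras and 23.7% in primary keratinocytes, with 1 array of each form far above the others of its group.

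The mean log2 ratio of Id1 was 0.49 (SE 0.32), -0.80 (SE 0.30), -0.70 (SE 0.32) and -1.42 (SE 0.39) at 1, 6, 24 and 48 h in ras keratinocytes. In primary keratinocytes it was 0.54 (SE 0.32), -0.80 (SE 0.30), -0.72 (SE 0.32) and -1.99 (SE 0.45). Id1 therefore fell at 48 h to a level 2.68-fold lower than in untreated ras keratinocytes (limma, adjusted p = 0.0334) and 3.98-fold lower than in untreated primary keratinocytes (limma, adjusted p = 0.0030). In bulk RNA, fewer cells with the transcript and less of it per cell cannot be told apart. The other 6 responses did not pass the test, with adjusted p between 0.161 and 0.9995. Both calls rest on few arrays. Without 1 of replicates 1, 2 and 3 the ras call was lost each time (adjusted p up to 0.201), and without replicate 1 or 2 the primary call was lost (adjusted p up to 0.123), and neither was made when each group's spread came from its own arrays alone (adjusted p = 0.201 in ras and 0.165 in primary keratinocytes). The ras call was also lost with arrays scaled to 1 spread (adjusted p = 0.0648) and with mAdb number ranges, described below, as a random block (adjusted p = 0.09). With the reversed arrays as deposited both were lost (-1.16 in ras and -0.64 in primary keratinocytes, adjusted p = 0.165 and 0.390).

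**Figure D1:**
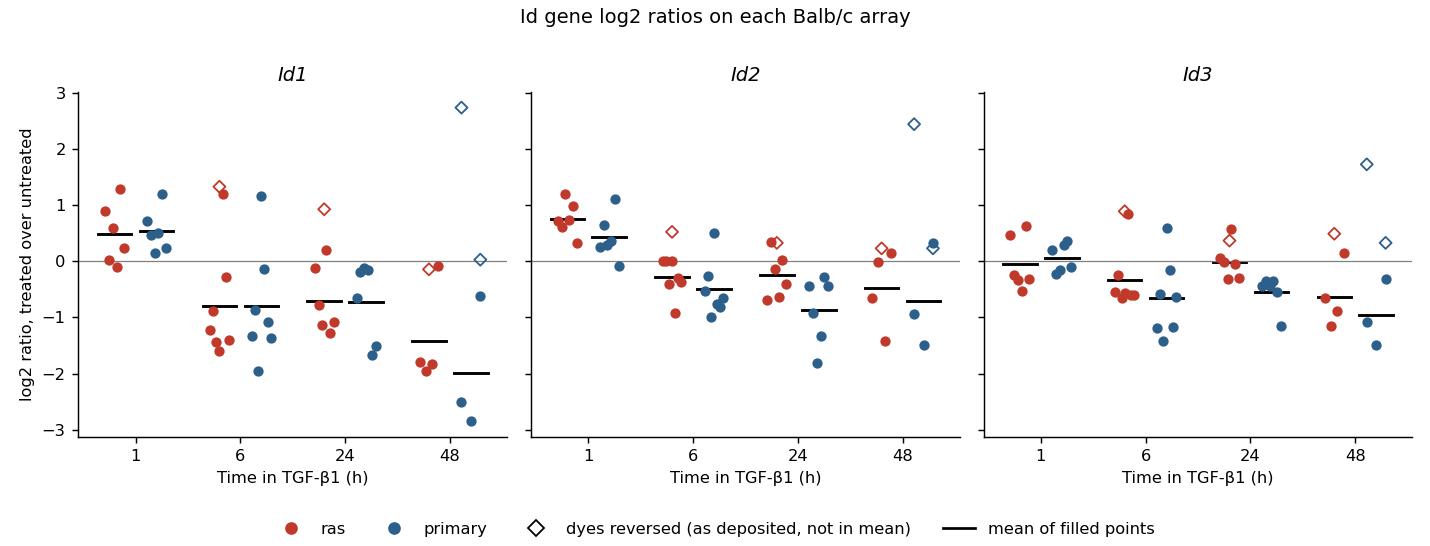
Log2 ratio, treated over untreated, of Id1, Id2 and Id3 (3 panels) on each Balb/c array against the time in TGF-β1 in hours, with ras in red to the left of primary in blue, means as black bars and the 5 reversed-dye arrays as open diamonds, as deposited. Id1 at 48 h lies below 0 on all 7 filled points, with means of -1.42 in ras and -1.99 in primary keratinocytes. At 1 h Id1 and Id2 each lie above 0 on 11 of 12.

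At 1 h the log2 ratio of Id2 was above 0 on all 6 ras arrays and on 5 of 6 primary arrays. That of Id1 was above 0 on 5 of 6 ras arrays and on all 6 primary arrays, and 2.25% of features had every primary array above 0. The log2 ratio of Id2 ran from 0.32 to 1.19 with a median of 0.73 in ras keratinocytes, and from -0.08 to 1.12 with a median of 0.32 in primary keratinocytes. Every array above 0 was seen for 3.74% of features in ras keratinocytes at 1 h. At 6 h it ran from -0.93 to 0.01 with a median of -0.29 on the ras arrays, and from -1.001 to 0.51 with a median of -0.65 on the primary arrays. At 24 h it ran from -0.69 to 0.34 with a median of -0.27 on the ras arrays, and from -1.81 to -0.28 with a median of -0.68 on the primary arrays. The primary arrays at 24 h were thus all below 0, which 3.86% of features showed in that group, while the ras arrays lay on both sides. At 48 h the 4 ras arrays gave -0.65, -0.01, -1.42 and 0.15, and the 3 primary arrays gave -0.93, -1.50 and 0.33, so that both groups crossed 0.

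As a mean, Id2 stood at 0.76 (SE 0.20), -0.28 (SE 0.19), -0.25 (SE 0.20) and -0.48 (SE 0.25) log2 units at 1, 6, 24 and 48 h in ras keratinocytes. In primary keratinocytes the means were 0.43 (SE 0.20), -0.50 (SE 0.19), -0.87 (SE 0.20) and -0.70 (SE 0.29). One of the 8 responses passed the test: in primary keratinocytes Id2 fell at 24 h, 1.83-fold below untreated cells (limma, adjusted p = 0.0139). This call was lost without replicate 2 (adjusted p = 0.126) or replicate 4 (adjusted p = 0.0712), and with each group's spread from its own arrays (adjusted p = 0.206). It was also lost with mAdb number ranges as a random block (adjusted p = 0.0533) and with the reversed arrays as deposited (adjusted p = 0.148). In the latter setting the mean stayed at -0.87, as no array of this group had reversed dyes, and its SE rose to 0.26. The response of ras keratinocytes at 1 h had an unadjusted p of 0.000587, the 19th smallest of 8905 features, and an adjusted p of 0.275, and it was called under limma's array weights alone among the alternatives (0.71, adjusted p = 0.016).

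Id3 stood near its untreated level at 1 h, and its call came in primary keratinocytes at 48 h. Its log2 ratio at 1 h ran from -0.53 to 0.64 with a median of -0.28 on the 6 ras arrays, and from -0.23 to 0.37 with a median of 0.05 on the 6 primary arrays. At 6 h it ran from -0.65 to 0.85 with a median of -0.56 on the ras arrays, and from -1.42 to 0.59 with a median of -0.64 on the primary arrays. One array in each form was above 0 at 6 h, the same array on which Id1 was above 0. At 24 h the ras arrays ran from -0.32 to 0.57 with a median of -0.03, and the primary arrays from -1.15 to -0.35 with a median of -0.43. At 48 h the 4 ras arrays gave -0.66, -1.15, -0.88 and 0.15, and the 3 primary arrays gave -1.08, -1.49 and -0.31. The primary arrays were all below 0 at 24 h and at 48 h, which 3.86% and 23.7% of features showed.

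Mean log2 ratios of Id3 at 1, 6, 24 and 48 h were -0.05 (SE 0.20), -0.34 (SE 0.18), -0.01 (SE 0.20) and -0.64 (SE 0.24) in ras keratinocytes, and 0.06 (SE 0.20), -0.65 (SE 0.18), -0.54 (SE 0.20) and -0.96 (SE 0.28) in primary keratinocytes. Id3 fell in primary keratinocytes at 48 h, 1.95-fold below untreated cells (limma, adjusted p = 0.0234), and no other of its 8 responses was called (adjusted p from 0.127 to 0.9995). Without replicate 1 or 2 of primary keratinocytes at 48 h the call was lost (adjusted p up to 0.352), as it was with arrays scaled to 1 spread (-0.74, adjusted p = 0.095), with each group's own arrays (adjusted p = 0.183) and with the reversed arrays as deposited (-0.17, adjusted p = 0.746). In all, 4 of the 24 responses of the 3 members were called, all of them lower in treated cells, where the share of features called lower was 1.61% in ras keratinocytes at 48 h and 1.01% and 3.49% in primary keratinocytes at 24 and 48 h, and 15 had an unadjusted p under 0.05, which 5.37% to 24.6% of features had in these groups. The 3 members were read on the same arrays, so these are not counts of separate results.

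Whether the response at later times differed from that at 1 h was tested as the difference between the responses themselves, in which a constant preference of a probe for 1 dye cancels. Such a difference does not by itself test a change of direction, and no member's response at 1 h was called in either form. The differences of a gene within a form share the same 1 h arrays, so they are not independent of each other. The 3 members were also read on the same arrays, and deviations of Id1 and Id3 from their group means correlated at 0.888. Counts over the members are therefore not counts of separate results. Of the 18 differences, 17 were negative, where 51.4% to 52.7% of all features were, and 15 had an unadjusted p under 0.05, where 2.1% to 17% of features had one. Only 2 were called, both in primary keratinocytes. There Id1 at 48 h minus 1 h was -2.54 log2 units (SE 0.55, 95% interval -3.66 to -1.42, adjusted p = 0.0045), from means of -1.99 at 48 h and 0.54 at 1 h, where 3.17% of features were called. Id2 at 24 h minus 1 h was -1.30 (SE 0.29, interval -1.88 to -0.72, adjusted p = 0.0360), from means of -0.87 at 24 h and 0.43 at 1 h, where 0.168% of features were called. The Id2 call was lost without any 1 of primary replicates 1 to 5 at 1 h or 1, 2 and 4 at 24 h (adjusted p up to 0.187), with the 2 groups' own spread (adjusted p = 0.248) and wherever reversed arrays entered the fit. Neither of the 2 groups had reversed arrays, so in those fits the value stayed at -1.30 while the spread shared over groups changed. For Id1 at 48 h the call was lost without primary replicate 2 at 48 h (adjusted p = 0.0819) and with the reversed arrays as deposited (-1.19, adjusted p = 0.347).

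Within ranges of the mAdb experiment number, the array identifier in the labels, 17 of the 18 differences kept their sign. The exception was Id3 at 24 h minus 1 h in ras keratinocytes, at 0.23 in the lowest range and -0.33 in the next. In primary keratinocytes Id2 at 24 h minus 1 h was -1.52 over 4 arrays against 4 in the lowest range and -0.88 over 2 against 2 in the next. Id1 at 48 h minus 1 h was -3.40 over 2 against 2 in that second range, the only one with arrays of both times.

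Differences of Id1 and Id2 that missed the threshold in ras keratinocytes ran from -1.91 to -1.01, and those of Id3 were smaller. In ras keratinocytes Id1 was -1.29 (SE 0.44), -1.19 (SE 0.45) and -1.91 (SE 0.50) at 6, 24 and 48 h relative to 1 h, with adjusted p of 0.598, 0.165 and 0.0762. Id2 was -1.04 (SE 0.28), -1.01 (SE 0.29) and -1.24 (SE 0.32), with adjusted p of 0.347, 0.0697 and 0.0710, where 0%, 1.08% and 0.247% of features were called at 6, 24 and 48 h. Id3 was -0.29 (SE 0.27), 0.05 (SE 0.28) and -0.58 (SE 0.31) there, the smallest of the 3 members at each time, with adjusted p of 0.9994, 0.964 and 0.437.

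In primary keratinocytes at 6 h minus 1 h, Id2 (-0.93), Id1 (-1.34) and Id3 (-0.71) stood 2nd, 4th and 20th of the 8905 features by unadjusted p. No feature was called in that contrast (0%), and 187 had an unadjusted p under 0.05. In ras keratinocytes at 6 h minus 1 h no feature was called either (0%), 545 had an unadjusted p under 0.05, and Id2 stood 14th by unadjusted p.

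**Figure D2:**
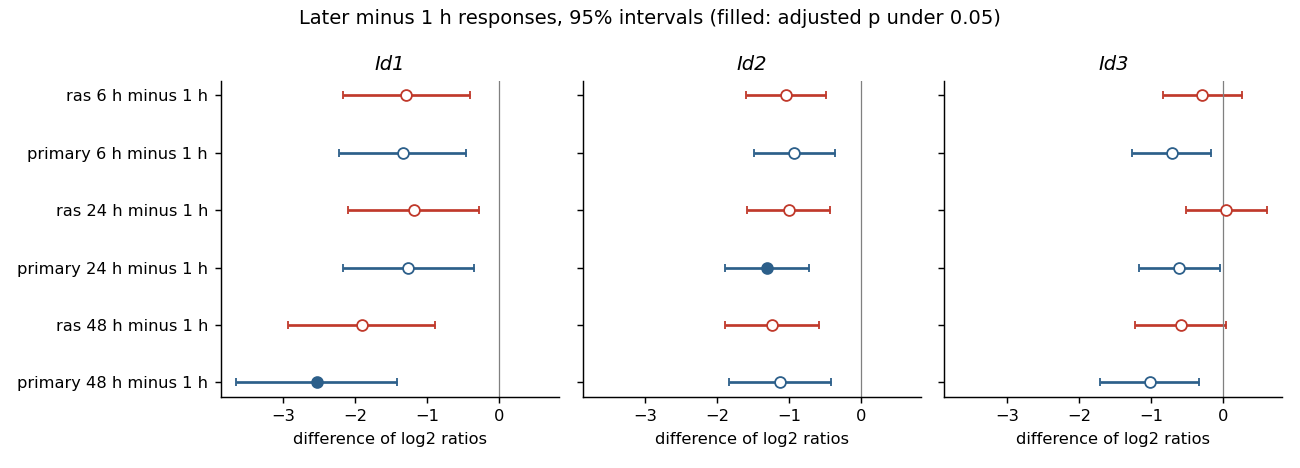
Difference of log2 ratios, later time minus 1 h, with 95% intervals for Id1, Id2 and Id3 in ras (red) and primary (blue) keratinocytes, filled where the adjusted p was under 0.05. All but 1 of the points lie left of 0, and the 2 filled ones are Id2 at 24 h (-1.30) and Id1 at 48 h (-2.54) in primary keratinocytes.

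Seen array by array, in primary keratinocytes every array at 24 h lay below every array at 1 h for all 3 members, which held for 0.337% of features. At 48 h this was so for Id1 and Id3 but not Id2 (3.11% of features), and at 6 h for none of the 3 (0.0225%). In ras keratinocytes it was so for Id2 at 6 h (0.191%) and 48 h (1.30%) and for no member at 24 h (1.08%).

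A contrast averaged over both forms, added after the values of the 2 forms had been seen, called more of the differences. For Id2 the mean difference from 1 h was -0.99 (SE 0.20, adjusted p = 0.0478) at 6 h, -1.16 (SE 0.20, adjusted p = 0.0008) at 24 h and -1.19 (SE 0.24, adjusted p = 0.0013) at 48 h. At 6 h only 2 features, 0.0225% of all, were called in this contrast, and the other was Klf10, a zinc finger factor induced early by TGF-β (-0.97, adjusted p = 0.00066). For Id1 the mean difference was -1.32 (SE 0.31, adjusted p = 0.241) at 6 h, -1.23 (SE 0.32, adjusted p = 0.0334) at 24 h and -2.22 (SE 0.37, adjusted p = 0.0001) at 48 h. For Id3 it was -0.50 (SE 0.19, adjusted p = 0.9992), -0.28 (SE 0.20, adjusted p = 0.557) and -0.80 (SE 0.23, adjusted p = 0.0268). Features called made up 1.7% at 24 h and 7.51% at 48 h. The call of Id2 at 6 h was lost in 23 of 26 fits without a single array (adjusted p up to 0.153), and that of Id1 at 24 h in 10 of 24 (adjusted p up to 0.0756). That of Id3 at 48 h was lost in 4 of 19 such fits (adjusted p up to 0.115). It was also lost with arrays scaled to 1 spread (adjusted p = 0.0984) and with mAdb number ranges as a random block (adjusted p = 0.0557). With the reversed arrays as deposited all 6 calls were lost (adjusted p between 0.0556 and 0.876).

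Averaged responses against 0, which called 2.72%, 8.15% and 18.8% of features at 6, 24 and 48 h, gave Id1 at 0.52 (SE 0.23, adjusted p = 0.635), -0.80 (SE 0.21, adjusted p = 0.0280), -0.71 (SE 0.23, adjusted p = 0.0428) and -1.71 (SE 0.30, adjusted p = 0.0001) at 1, 6, 24 and 48 h. Those of Id2 were 0.59 (adjusted p = 0.0930), -0.39 (adjusted p = 0.105), -0.56 (adjusted p = 0.0103) and -0.59 (adjusted p = 0.0255), and those of Id3 0.00, -0.50 (adjusted p = 0.0280), -0.28 (adjusted p = 0.227) and -0.80 (adjusted p = 0.0022). No member was called at 1 h, where 0.168% of features were called. Id2 at 1 h was called with array weights (0.52, adjusted p = 0.0283) and with arrays scaled to 1 spread (0.68, adjusted p = 0.0453). It was also called in the 2 fits without sets of arrays at 6 h or 48 h chosen after the data were seen (adjusted p = 0.0410 and 0.0356). None of 12 fits without a single array called it (adjusted p from 0.0732 to 0.341). Of the 7 later calls, that of Id1 at 48 h was made in every alternative and in all 7 fits without a single array. Single arrays left out ended the call in 8 of 14 fits for Id1 at 6 h (adjusted p up to 0.0874), 7 of 12 for Id1 at 24 h (up to 0.121), 4 of 7 for Id2 at 48 h (up to 0.223) and 8 of 14 for Id3 at 6 h (up to 0.0878). These 4 and Id2 at 24 h were also lost with each group's own arrays, with the mAdb ranges as a random block and with the reversed arrays as deposited (adjusted p between 0.0537 and 0.724). In that last setting Id2 and Id3 at 48 h were at -0.11 and -0.29, neither of them called.

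The 3 members did not vary alike from array to array. Over the 45 Balb/c arrays Id1 and Id3 correlated at 0.847, and still at 0.888 after each group's mean had been subtracted. Id1 and Id2 correlated at 0.538 over the arrays but at 0.183 in those deviations, and Id2 and Id3 at 0.470 and 0.243. Over the 8 group means the 3 pairs stood at 0.859, 0.842 and 0.780 in the same order. Id4, the remaining gene of the family, correlated with Id1 at 0.021 over the arrays. These are descriptions, and the points share cell form, time and array quality. Without the 2 arrays at 6 h on which Id1 was above 0, Id1 and Id3 correlated at 0.822 over 43 arrays.

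**Figure D3:**
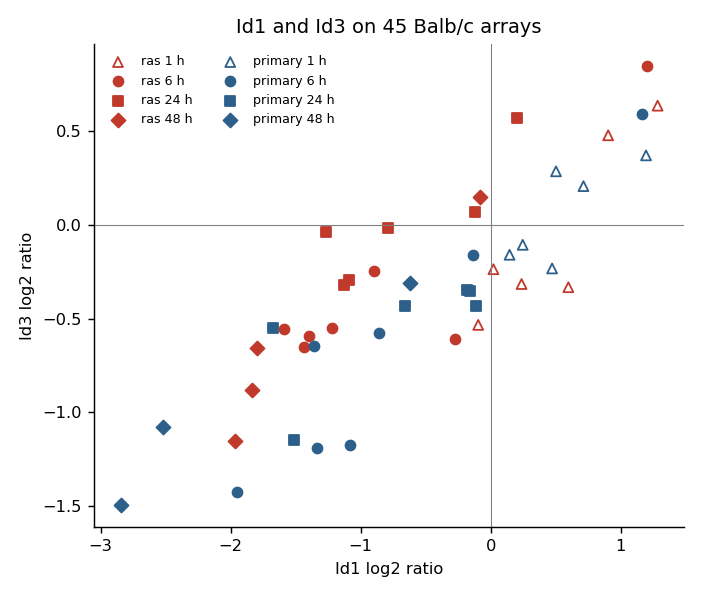
Log2 ratio of Id3 against that of Id1 on the 45 Balb/c arrays, with ras in red, primary in blue and the time shown by the symbol. The points follow 1 line (correlation 0.847), and 1 filled circle of each form, at 6 h, lies in the upper right among the 1 h arrays.

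Those 2 arrays are replicate 6 of ras keratinocytes and replicate 4 of primary keratinocytes. On the ras array Id1 and Id3 were at 1.20 and 0.85 while Id2, at -0.93, was the lowest of its group. On the primary array all 3 were above 0, at 1.16, 0.51 and 0.59 for Id1, Id2 and Id3. Of 5 other TGF-β target genes, picked after their values were seen, the primary array had Skil, a SMAD co-repressor, at -0.84, clusterin (Clu), a secreted chaperone, at -1.78, the macrophage growth factor Csf1 at -1.61, Klf10 at -0.59 and Smad7, the inhibitory SMAD, at 0.30. On the ras array Clu was at 1.87, Smad7 at 1.09 and Klf10 at -0.69, with Skil at -0.005 and Csf1 at 0.002. Without the primary array Id3 at 6 h in primary keratinocytes was -0.86 and called (adjusted p = 0.0387), and without the ras array Id1 at 6 h in ras keratinocytes was -1.14 and called (adjusted p = 0.0280), against the uncalled values above.

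At 48 h 1 array of each form, ras replicate 4 and primary replicate 5, carried higher mAdb numbers than the rest of its group. All 3 members were closest to 0 or above it on them, at -0.08, 0.15 and 0.15 for Id1, Id2 and Id3 on the ras array and at -0.62, 0.33 and -0.31 on the primary array. Clu, Csf1 and Skil were above 0 on the same arrays, at 1.17, 1.07 and 0.72 on the ras array and 2.62, 2.22 and 1.16 on the primary array, but these genes were picked after their values were seen. Smad7 was at -0.64 on the ras array, where the other 3 ras arrays were between 0.28 and 1.17, and at 0.34 on the primary array. Without both arrays, an alternative added after their values had been seen, the 48 h means were -1.87, -0.69 and -0.90 for Id1, Id2 and Id3 in ras keratinocytes and -2.68, -1.21 and -1.28 in primary keratinocytes. All of these but that of Id2 in ras keratinocytes (adjusted p = 0.115) were then called. The part of the mAdb number in these values was not tested.

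**Figure D4:**
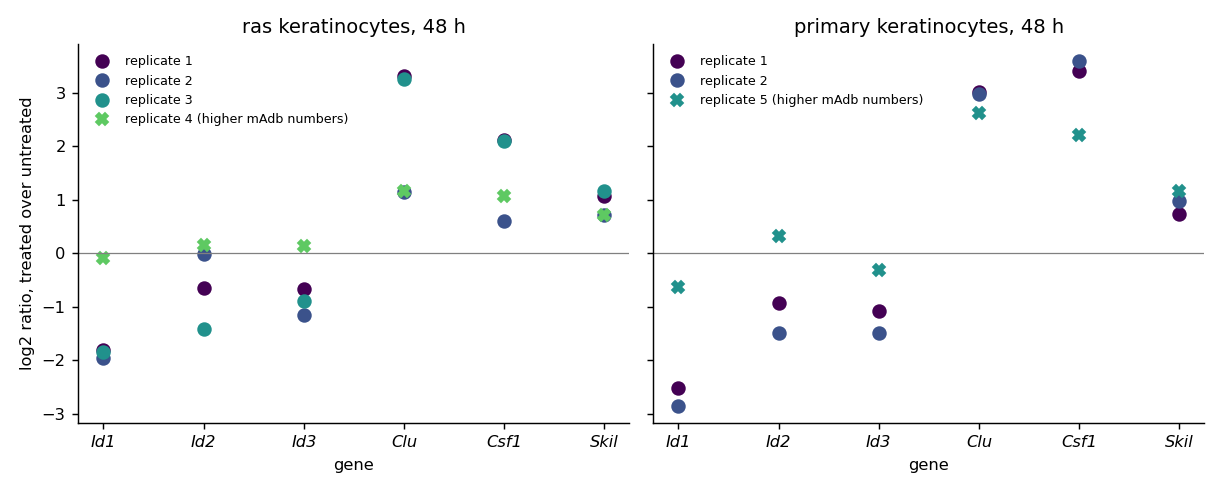
Log2 ratio, treated over untreated, of the 3 Id genes and of Clu, Csf1 and Skil on each array at 48 h, ras keratinocytes left and primary keratinocytes right, with crosses for the 2 arrays of higher mAdb numbers. The crosses stand above the circles for Id1, at -0.08 in ras and -0.62 in primary keratinocytes, while Clu, Csf1 and Skil are above 0 on every array.

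Arrays with reversed dyes gave the members mostly positive values as deposited. Replicate 5 of ras keratinocytes at 6 h gave 1.33, 0.52 and 0.89 for Id1, Id2 and Id3, and replicate 4 of ras keratinocytes at 24 h gave 0.93, 0.33 and 0.37. At 48 h replicate 5 of ras keratinocytes gave -0.14, 0.23 and 0.49, replicate 3 of primary keratinocytes 2.74, 2.44 and 1.73, and replicate 4 of primary keratinocytes 0.03, 0.23 and 0.33. Turned in sign, those of ras at 6 h and 24 h and of primary replicate 3 would lie below 0 for all 3 members. Clu, in the same order of arrays, was at -2.13, -2.41, -0.575, -2.18 and -1.71 as deposited, and Csf1 at -1.44, -0.41, -1.20, -2.73 and -1.74. The other arrays of these groups had means above 0 for both genes. Skil was at 0.61 on primary replicate 3 and below 0 on the other reversed Balb/c arrays. These genes were picked after their values were seen, and the sign was not tested. Fits with the reversed arrays as deposited average them with the others without a change of sign. With all reversed arrays turned, the 48 h response of Id2 in primary keratinocytes was -0.95 and called (adjusted p = 0.0064), and that of Id1 in ras keratinocytes was -1.11 and no longer called (adjusted p = 0.144).

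Whether these responses differed between the 2 forms was tested as ras minus primary at each time. No group was labelled as given a virus without the oncogene, so the oncogene and the transduction cannot be told apart. None of the 12 differences was called (limma, lowest adjusted p = 0.475), where 0%, 0%, 0.0449% and 0.202% of features were called at 1, 6, 24 and 48 h, and 1 of the 12 had an unadjusted p under 0.05. That was Id2 at 24 h, with a mean of -0.25 in ras and -0.87 in primary keratinocytes, a difference of 0.62 (SE 0.29, 95% interval 0.04 to 1.21). Id3 at 24 h differed by 0.54 (SE 0.28, interval -0.03 to 1.10), from means of -0.01 in ras and -0.54 in primary keratinocytes. For Id1 the differences were -0.05, -0.01, 0.02 and 0.57 at 1, 6, 24 and 48 h, and the interval at 48 h, -0.63 to 1.78, left room for a response up to 1.78 log2 units weaker in ras keratinocytes. The intervals do not show that both forms respond alike.

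Smad3 carries the TGF-β signal from the receptor to the nucleus, and the knockout arrays ask whether the response at 48 h needs it. Both channels of an array are of 1 genotype, so the ratio of Smad3 itself cannot check the deletion. Id1 gave 0.04 in KO and -0.07 in WT ras keratinocytes, and -0.62 in KO and 0.12 in WT primary keratinocytes. Id2 gave 0.19 in KO and 0.15 in WT ras keratinocytes, and -0.12 in KO and 0.07 in WT primary keratinocytes. Id3 gave 0.47 in KO and 0.64 in WT ras keratinocytes, and 0.09 in KO and 0.70 in WT primary keratinocytes. On the WT arrays no member was lower than the -0.07 of Id1 in ras keratinocytes, whereas Id1 had means of -1.42 in ras and -1.99 in primary Balb/c keratinocytes at 48 h. The WT arrays, 1 per form, thus showed no fall of the members that a knockout could remove. KO minus WT therefore cannot answer whether the Balb/c fall needs Smad3. Strain, mAdb number and culture differ between the Balb/c and WT arrays and cannot be told apart. Clu, at 1.74 and 1.84 on the KO and 2.38 and 2.01 on the WT arrays of ras and primary keratinocytes, was well above 0 on all 4.

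None of the 9 KO minus WT differences of the members was called, with no unadjusted p under 0.05, where 1.12% of features were called in ras and 1.33% in primary keratinocytes. Each rests on 1 array per genotype, assumed to vary like the Balb/c groups, and the intervals are wide: for Id1 the difference was 0.11 (interval -2.12 to 2.35) in ras and -0.73 (interval -2.97 to 1.502) in primary keratinocytes. The second KO array of each form, with reversed dyes, gave 0.08, 0.48 and 0.12 for Id1, Id2 and Id3 in ras and 0.32, 0.45 and 0.48 in primary keratinocytes as deposited. Its correlation with the other KO array over all features was positive as deposited, 0.412 in ras and 0.482 in primary keratinocytes. On the reversed KO arrays Clu was at -0.95 in ras and -0.51 in primary keratinocytes, and Skil at 0.63 and 0.48. Both genes were above 0 on the other KO arrays. They were picked after their values were seen, and the sign of the reversed arrays was not tested.

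Id4, the fourth family member and an uncalled gene in all 8 Balb/c responses (means from -0.30 to 0.10), stood apart on the KO arrays. Its log2 ratio was -1.92 in KO and 0.17 in WT ras keratinocytes, and -2.35 in KO and -0.67 in WT primary keratinocytes. The reversed KO arrays gave -1.39 in ras and -0.64 in primary keratinocytes as deposited. The KO minus WT difference was -2.09 in ras keratinocytes (SE 0.50, adjusted p = 0.0140) and -1.69 in primary keratinocytes (SE 0.50, adjusted p = 0.0941). With the reversed arrays turned the ras difference was -0.43 and with arrays scaled to 1 spread it was -1.54, neither of them called (adjusted p = 1 and 0.227).

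Genes with the pattern most like each member were taken from the 1408 named genes called in 1 or more of the 8 Balb/c responses, by the correlation of the 8 group means. For Id1 these were Clec4f (0.948), a lectin of liver macrophages, Mcm6 (0.938), a subunit of the replicative helicase, Dnase1l3 (0.931), a secreted nuclease, Il18 (0.931), a cytokine made by keratinocytes, and Sorbs2 (0.925), an adaptor of the actin cytoskeleton. Id2 was closest to Trim16 (0.913), Ybx3 (0.884), a cold shock domain protein, Tmem45a (0.879), Mcm5 (0.847), another helicase subunit, and Endou (0.847). Id3 was closest to Net1 (0.953), an exchange factor for RhoA, Shmt1 (0.932), an enzyme of folate metabolism, Klf5 (0.918), an epithelial transcription factor, Krt10 (0.910), a keratin of differentiating keratinocytes, and Ackr3 (0.892), a chemokine receptor. Several of them lacked the early positive side. Il18 had means of -0.26 in ras and -0.07 in primary keratinocytes at 1 h, and Klf5 -0.25 and -0.28. Over the 45 arrays the same correlations were lower, between 0.246 for Trim16 with Id2 and 0.754 for Tmem45a with Id2.

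Upstream of the Id genes, few BMP genes passed the test. For this list and those below, the share of all features called was 10.5% and 3.5% in ras keratinocytes at 24 and 48 h. It was 1.36% and 8.6% in primary keratinocytes at these times. At 1 and 6 h it was 0.0786% and 1.73% in ras keratinocytes, and 0.0112% at each of these times in primary keratinocytes. Of 28 BMP ligands and antagonists listed 7 were measured, and 1 rose in both forms at 48 h: Nbl1, a secreted BMP antagonist, at 0.90 in ras and 0.94 in primary keratinocytes, after a rise of 0.66 in primary keratinocytes at 24 h. Bmp8a, a ligand, fell in ras keratinocytes at 24 h (-0.81), and Bmp4, Bmp5, Bmp6, Chrdl1 and Fst were called nowhere. Of 10 BMP and activin receptors 5 were measured, and Bmpr2, the type II BMP receptor, fell in ras keratinocytes at 48 h (-1.48), with -0.79 in primary keratinocytes, not called. List medians of these 2 groups lay between -0.46 and 0.05, beside -0.05 to 0.01 for all features.

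Among TGF-β ligands, latent binding proteins and receptors, 7 of 10 were measured. Ltbp2, which belongs to the latent TGF-β binding proteins, rose by 2.07 and Tgfb3, a ligand, by 1.87 in primary keratinocytes at 48 h, with 0.51 and 0.91 in ras keratinocytes, not called. None of the 7 was called at an earlier time, Tgfbr2, the type II receptor, included.

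The SMADs and their regulators, 12 of 17 measured, gave rises of Skil and Smad7 at early times. Skil rose in ras keratinocytes at 1 h (1.34), 6 h (0.96) and 48 h (0.92), and in primary keratinocytes at 48 h (0.96). Smad7 rose in ras keratinocytes at 1 h (1.16) and 6 h (0.86), and stood at 0.98 at 1 h in primary keratinocytes, not called. Smurf2, a ubiquitin ligase for SMADs and receptors, rose in ras keratinocytes at 6 h (0.46). Smad6, the inhibitor of BMP-activated SMADs, fell in ras keratinocytes at 24 h (-1.22). Smad1, Smad2, Smad3, Smad4, Smad5, Smurf1, Tgif1 and Ppm1a were called in none of the 8 responses.

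Other targets of SMAD1 and SMAD5, 8 of 16 measured, gave 5 calls over the 8 responses. Beside Smad6 and Smad7, Msx1, a homeobox factor, fell in ras keratinocytes at 24 h (-0.75) and Gata3, a zinc finger factor of the epidermis, fell in primary keratinocytes at 48 h (-0.98). Dlx5, Gata2, Hey1 and Id4 were not called. The list median at 48 h was -0.25 in ras and -0.48 in primary keratinocytes, beside -0.02 and -0.05 for all features. Of the transcription factors known to act on Id promoters, 8 of 15 were measured. Atf4, the stress-induced factor of the ATF family, rose in ras keratinocytes at 6, 24 and 48 h (0.64, 0.44 and 0.57), with 0.00, 0.29 and 0.39 in primary keratinocytes, not called. Myc fell in ras keratinocytes at 6 h (-1.18), and Creb1, Sp1, Yy1, Nfya, Nfyb and Mycn were not called.

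Downstream, the E proteins were covered by 1 of 3 listed genes, Tcf3, which encodes E12 and E47. Its means lay between -0.27 and 0.30 and none was called. Of 41 other basic helix-loop-helix genes 14 were measured. Bhlhe40, a repressor of that family induced early by TGF-β, rose in ras keratinocytes at 1 h (1.11) and 6 h (0.78). Twist1, a factor of mesenchymal cells, rose in primary keratinocytes at 48 h (1.28), with 0.07 in ras keratinocytes. Olig2 and Tal1 fell in ras keratinocytes at 24 h (-1.61 and -1.57), where 10.5% of all features were called, and Hes5 at 48 h (-2.16), where 3.5% were. These are genes better known from nerve and blood cells, whose spot brightness was not used here.

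Partners of Id proteins and genes that E proteins activate, 13 of 18 measured, gave calls mostly from 2 genes. Cdkn2b, the cyclin-dependent kinase inhibitor p15, rose in ras keratinocytes at 6, 24 and 48 h (0.88, 0.74 and 1.04) and in primary keratinocytes at 24 h (0.88). Thbs1, a matrix glycoprotein that Id1 is known to repress, rose in ras keratinocytes at 24 and 48 h (0.73 and 1.11) and in primary keratinocytes at 24 and 48 h (0.84 and 0.93). Cav1, a membrane protein that binds Id1, fell in primary keratinocytes at 48 h (-0.85). Cdkn1a, the inhibitor p21, stood between 0.16 and 0.51 in all 8 responses and was not called. Of the early TGF-β target genes 8 of 9 were measured: 4 rose and 1 (Ier3) fell in ras keratinocytes at 1 h, and 1 (Klf10, 0.84) rose in primary keratinocytes.

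**Figure D5:**
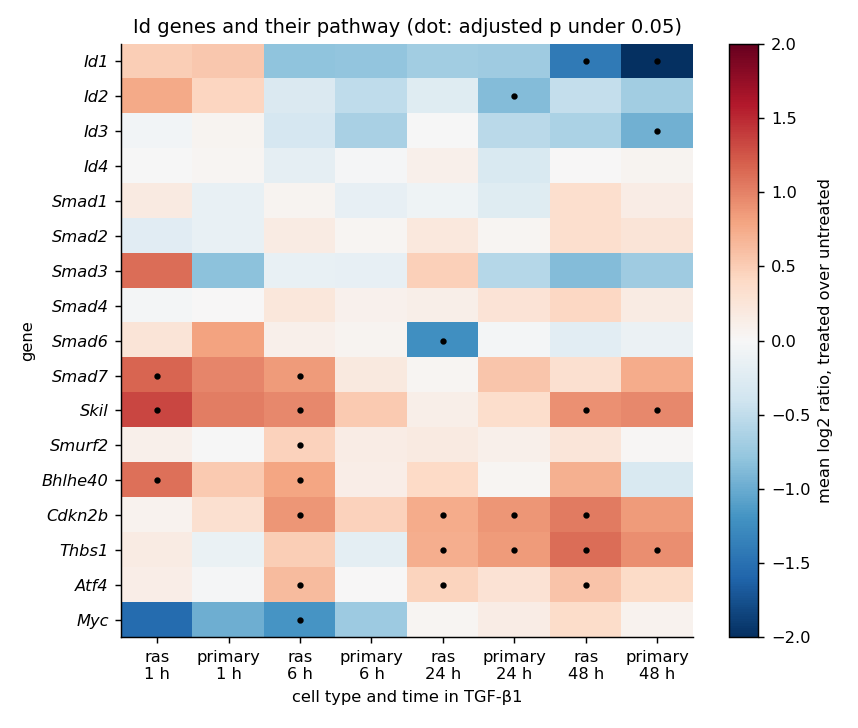
Mean log2 ratio, treated over untreated, of the 4 Id genes and of 13 genes of their pathway in the 8 Balb/c responses, from blue (lower in treated cells) to red (higher), with a dot where the adjusted p was under 0.05. The Id1 and Id2 rows are red at 1 h and blue later, and Id4 stays pale. Cdkn2b is red in both forms from 6 h on, and Thbs1 from 24 h on.

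Some cell type markers were called in these groups. Of all features, 10.5% and 3.5% were called in ras keratinocytes at 24 and 48 h, and 1.36% and 8.6% in primary keratinocytes. At 24 h, 1 keratinocyte marker (Itgb4) rose in ras keratinocytes and none was called in primary keratinocytes, where 13 of 15 had a mean below 0 (list median -0.30). Immune markers at 24 h gave rises of C1qa and Lyz2 and a fall of Itgam in ras keratinocytes and a rise of Lyz2 in primary keratinocytes, while 1 fibroblast marker (Fbln2) rose and 1 melanocyte marker (Sox10) fell in ras keratinocytes. Of 15 measured keratinocyte markers, 5 fell in primary keratinocytes at 48 h and 1 in ras keratinocytes at 48 h, where 3.49% and 1.61% of all features were called lower. Fibroblast markers, 11 measured, gave 1 rise at 48 h in ras keratinocytes (list median 0.07, range -0.52 to 1.40) and 4 rises in primary keratinocytes (list median 1.01, range -0.66 to 2.03). Immune markers, 17 measured, gave 1 rise in ras and 3 rises and 1 fall in primary keratinocytes at 48 h, with list medians of -0.20 and -0.09. No endothelial marker of 8 and no melanocyte marker of 4 was called at 48 h. Ratios do not show a marker's level, so neither the labelled cell type nor the presence of other cells could be checked. The part of these markers in the Id values was not tested.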

How the data were processed

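Per the labels, each of the 56 arrays set RNA of treated cells against RNA of untreated cells, and the authors deposited 1 log ratio per probe and array, used here as log2, treated over untreated after the channel order of the labels. How the authors scanned, corrected and normalized these deposited log2 values, and the log base, is not stated in the sources read, and sizes reach 11.3. Symbols were updated through Entrez IDs (7395 of 7486 probes with 1 symbol matched RefSeq, while 483 had several symbols and 1627 had none listed). Probes of 1 symbol were averaged, giving 8905 features, 6795 of them named. Each array was centred on its median. One limma 3.58.1 model (lmFit, eBayes) in R 4.3.3 gave 12 group means from the 49 arrays with treated RNA in Cy5, and all contrasts. Tests were two-sided, with Benjamini-Hochberg adjustment over all features of a contrast and calls at an adjusted p under 0.05, and intervals cover 95%. The fit was tested on simulated data.

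The 7 reversed-dye arrays were left out because the sources do not say whether their sign was turned. The median correlation of the 5 Balb/c ones with their groups lay between -0.1 and 0.1, the bounds of the rule used. The 2 KO ones, at 0.412 and 0.482, lay outside these bounds and were left out too. Alternatives were those arrays as deposited, turned, or turned with a dye term, no centring, arrays scaled to 1 spread, array weights, each group's own arrays, single probes, the replicate number and 4 ranges of the mAdb number as blocks, and arrays left out. With 19 pairs of same-numbered arrays correlating at -0.232 to 0.39 (median 0.0484), the replicate numbers did not pair the arrays.

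The members and the 16 gene lists were chosen with earlier results of these data known. The named genes are the 3 members, Id4, the E proteins, the SMADs and their regulators, members of the other lists called in any Balb/c response, and the 5 genes most like each member. Clu, Csf1, Klf10 and uncalled list members were named after their values were seen.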

Additional observations from a re-analysis of the deposited data

Results flagged for a closer look

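In 3 of 21 tested pairs of a member and a Balb/c group, 1 array lay far from the others by Dixon's criterion, which chance alone meets in about 1 of 20 groups. Id1 was at -0.08 on ras replicate 4 at 48 h, with the other 3 arrays between -1.96 and -1.80. Id3 was at 0.85 on ras replicate 6 at 6 h, with the next highest array at -0.25, and at -1.15 on primary replicate 6 at 24 h, with the other 5 arrays between -0.55 and -0.35.

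The responses of 1 cell form differed between times by the test of the difference itself in 2 cases, both in primary keratinocytes: Id2 by -1.30 at 24 h minus 1 h and Id1 by -2.54 at 48 h minus 1 h. Averaged over both forms, a contrast added after the data had been seen, 6 differences from 1 h passed the test. They were -0.99 at 6 h, -1.16 at 24 h and -1.19 at 48 h for Id2, -1.23 at 24 h and -2.22 at 48 h for Id1, and -0.80 at 48 h for Id3.

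Id4, outside the 3 members, differed between Smad3 KO and WT by -2.09 in ras keratinocytes and by -1.89 over both forms, with 1 array per genotype and form. This difference was not called with the reversed arrays turned.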

How the results depend on the processing

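Over all combinations of a value of Id1 to Id4 and an alternative other than leaving out 1 array, 970 kept direction and side of the threshold, 63 lost a call, 43 gained one and 28 changed sign. Values are log2 ratios, or differences of them, with ras or primary naming the cell form, and the cause of these changes was not tested. Calls lost or gained by Id4 or by values averaged over both forms are left out of the lists below unless named. For example, the averaged Id1 difference at 6 h minus 1 h gained a call with array weights (-1.16) and with arrays scaled to 1 spread (-1.49).

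With the reversed arrays as deposited, the call was lost for Id1 at primary 48 h minus 1 h (-1.19), primary 48 h (-0.64), ras 48 h (-1.16), Id2 at primary 24 h minus 1 h (-1.30), primary 24 h (-0.87) and Id3 at primary 48 h (-0.17). All 6 calls of differences from 1 h averaged over both forms were lost as well (values between -1.42 and -0.29). The sign changed for Id1 at ras minus primary 48 h (-0.52), ras minus primary 6 h (0.26), Id2 at Smad3 KO minus WT over both forms (0.14), Smad3 KO minus WT primary (0.088), ras minus primary 48 h (-0.45), primary 48 h (0.12) and Id3 at ras minus primary 48 h (-0.25), ras 24 h (0.048). With the reversed arrays turned, the call was lost for Id1 at ras 48 h (-1.11) and Id2 at primary 24 h minus 1 h (-1.30). A call was gained for Id2 at primary 48 h minus 1 h (-1.38), primary 48 h (-0.95) and Id3 at primary 48 h minus 1 h (-1.05). Opposite in sign to the values of the report were Id1 at ras minus primary 24 h (-0.015), Id2 at Smad3 KO minus WT ras (-0.29) and Id3 at ras 24 h minus 1 h (-0.0059). With the reversed arrays turned and a dye term, the call was lost for Id1 at ras 48 h (-1.02) and Id2 at primary 24 h minus 1 h (-1.30). A call was gained for Id2 at primary 48 h minus 1 h (-1.27), primary 48 h (-0.98). The sign changed for Id1 at Smad3 KO minus WT ras (-0.10), ras minus primary 24 h (-0.058), Id2 at Smad3 KO minus WT ras (-0.15) and Id3 at mean of both forms 1 h (-0.14), primary 1 h (-0.081). Without centring, the sign changed for Id1 at ras minus primary 24 h (-0.0015), ras minus primary 6 h (0.0091). With arrays scaled to 1 spread, the call was lost for Id1 at ras 48 h (-1.18) and Id3 at primary 48 h (-0.74). A call was gained for Id1 at ras 6 h (-1.03) and Id3 at primary 24 h (-0.61). The sign changed for Id1 at ras minus primary 1 h (0.0078) and Id3 at mean of both forms 1 h (-0.037). With array weights, a call was gained for Id1 at ras 24 h minus 1 h (-1.14), ras 48 h minus 1 h (-1.74), ras 6 h minus 1 h (-1.38), ras 6 h (-1.09), Id2 at ras 24 h minus 1 h (-0.94), ras 6 h minus 1 h (-0.89), primary 6 h (-0.63), ras 1 h (0.71) and Id3 at primary 24 h (-0.42), ras 6 h (-0.49). The sign changed for Id1 at ras minus primary 24 h (-0.43) and Id3 at mean of both forms 1 h (-0.087), ras minus primary 6 h (-0.068). With each group's own arrays, the call was lost for Id1 at primary 48 h (-1.99), ras 48 h (-1.42), Id2 at primary 24 h minus 1 h (-1.30), primary 24 h (-0.87) and Id3 at primary 48 h (-0.96). With the replicate block, the call was lost for Id2 at primary 24 h minus 1 h (-1.30). Opposite in sign to the values of the report were Id1 at ras minus primary 6 h (0.19) and Id3 at mean of both forms 1 h (-0.083), primary 1 h (-0.027). With mAdb number ranges as a random block, the call was lost for Id1 at ras 48 h (-1.31) and Id2 at primary 24 h (-0.83). Opposite in sign to the values of the report was Id3 at ras 24 h (0.013). Without the 2 widest arrays, the sign changed for Id1 at ras minus primary 24 h (-0.10). Without primary replicate 4 and ras replicate 6 at 6 h, left out because of their Id values, a call was gained for Id1 at ras 48 h minus 1 h (-1.91), ras 6 h (-1.14), Id2 at primary 48 h minus 1 h (-1.13), ras 24 h minus 1 h (-1.01), ras 48 h minus 1 h (-1.24) and Id3 at primary 48 h minus 1 h (-1.02), primary 6 h (-0.86). Without the 48 h arrays of higher mAdb numbers, a call was gained for Id1 at ras 48 h minus 1 h (-2.36), Id2 at primary 48 h minus 1 h (-1.64), ras 24 h minus 1 h (-1.01), ras 48 h minus 1 h (-1.45), primary 48 h (-1.21) and Id3 at primary 48 h minus 1 h (-1.35), ras 48 h (-0.90).

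Leaving out single arrays changed a call or a sign of these values, given with their lowest and highest. Id1 ranged at primary 48 h minus 1 h (-3.22 to -2.11), ras 48 h minus 1 h (-2.36 to -1.73), ras minus primary 1 h (-0.21 to 0.075), ras minus primary 24 h (-0.17 to 0.14), ras minus primary 6 h (-0.34 to 0.32), primary 48 h (-2.68 to -1.57), ras 48 h (-1.87 to -1.24) and ras 6 h (-1.14 to -0.67). Id2 ranged at primary 24 h minus 1 h (-1.42 to -1.12), primary 48 h minus 1 h (-1.64 to -0.73), ras 24 h minus 1 h (-1.13 to -0.92), ras 48 h minus 1 h (-1.45 to -0.93), ras minus primary 48 h (-0.18 to 0.73), primary 24 h (-0.99 to -0.69) and primary 48 h (-1.21 to -0.30). Id3 ranged at mean of both forms 1 h (-0.064 to 0.053), primary 48 h minus 1 h (-1.35 to -0.75), ras 24 h minus 1 h (-0.069 to 0.18), primary 1 h (-0.0018 to 0.12), primary 48 h (-1.28 to -0.69), primary 6 h (-0.86 to -0.53), ras 1 h (-0.19 to 0.045), ras 24 h (-0.12 to 0.057) and ras 48 h (-0.90 to -0.46).

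Replicate numbers did not pair the arrays (19 pairs, correlations -0.232 to 0.39). In the replicate block the differences from 1 h averaged over both forms were not called for Id1 at 24 h (-1.17) and Id2 at 6 h (-0.93). Fits of single probes lost the call of that Id2 value (-0.99) and changed no other Id call. The 2 sets of arrays left out at 6 h and at 48 h were chosen after seeing the data. Of the counts of list members called, 1158 stayed within 1.5 times and 250 moved beyond that. Groups of 3 or 4 arrays at 48 h and 1 array per Smad3 genotype and form limit every value there, and the part of low spot brightness in the ratios was not tested.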
